A study of Danio rerio with 13 samples.

Results

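Unplaced scaffolds are stretches of assembled sequence that have not been assigned to a numbered chromosome, and in the danRer10 assembly of zebrafish their names start with chrUn. Described here are all 6mA summits on such scaffolds, chosen by that name alone. They number 5976 of the 159142 summits in the 8 6mA-IP-seq lists of the series. In 6mA-IP-seq, an antibody against 6mA enriches the fragments of genomic DNA that it binds, and the reads are compared with those of unenriched input DNA. A summit is the position of highest enrichment in a called peak. Each summit carries a score, the q-value of the peak caller as −log10, and scores were compared only within a list. All embryos were of the Tubingen line, raised in Holtfreter's solution and pooled by stage. The groups were the 64-cell stage (64C) and 11, 12 and 13 hours post fertilization (hpf). At 11, 12 and 13 hpf the SYSY antibody was used, with 2 libraries per stage that share the input of that stage. These 6 lists are called the later libraries below. At 64C there was 1 library with the Abcam antibody and 1 with the SYSY antibody, each with its own input. The 64C SYSY list has 0 of its 79291 summits on scaffolds, which by counting error alone allows a share of up to 0.00378%. Whether this list was mapped or filtered differently cannot be settled from the lists. The 0 is therefore not read as a lack of signal on scaffolds. The 64C library used here is thus the Abcam one, and 7 libraries are described. For this reason 64C differs from the later stages in antibody as well as in stage, and these cannot be told apart.

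6mA is adenine that carries a methyl group on its exocyclic nitrogen. It is common in bacteria, and its amount and its sources in animal DNA are debated. Scaffolds often remain unplaced because they hold repeated sequence, which short reads cannot join to a unique neighbour. The 64-cell embryo is in the cleavage stage, in which cells divide rapidly and depend on maternal products, whereas from 11 to 13 hpf the embryo begins to form somites. Where a read fitted several places equally well, the authors' mapping picked 1 of these by chance, and for summits in repeats the named scaffold is therefore 1 possible origin. Scaffold lengths, repeat annotation and genome sequence of danRer10 were not used here, and densities per base were therefore not computed. Read numbers were not used either, and without the depth of the libraries the part of depth in any change of summit numbers was not tested. Intervals cover counting error only.

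Scaffold summits were present in each of the 7 libraries. In replicates 1 and 2 of 11 hpf there were 727 and 474, in those of 12 hpf 417 and 463, in those of 13 hpf 343 and 277, and at 64C 3275. The 11 hpf replicate 1 is the highest of the later libraries, and both libraries of 13 hpf lie below all 4 of the earlier stages. From 11 over 12 to 13 hpf the mean fell from 600.5 ± 179 over 440 ± 32.5 to 310 ± 46.7 (SD, n = 2 per stage), a slope of -145.25 summits per hour (two-sided exact permutation test over 90 orders, p = 0.0222, the smallest these can give; adjusted p = 0.0455 over 16 tests). The summits on numbered chromosomes fell over the same hours, from 5482.5 ± 1941 to 3689.5 ± 455 and 2647.5 ± 687 (SD, n = 2 each; exact permutation p = 0.0222). The mean at 13 hpf was 0.516 times that at 11 hpf on scaffolds and 0.483 times on chromosomes. Without replicate 1 of 11 hpf the slope on scaffolds is -88.9 summits per hour, with an exact permutation p = 0.0667. Each stage also has its own input, shared by its libraries, so that stage and input cannot be told apart. Here and for the other slopes, the p-values do not measure the spread between inputs.

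As a part of each list, the scaffolds took similar shares in the later libraries. The share of summits on scaffolds was 9.59% (95% Wilson interval 8.95 to 10.3%) and 10.3% (9.49 to 11.3%) at 11 hpf. It was 11.0% (10.1 to 12.1%) and 10.3% (9.49 to 11.3%) at 12 hpf, and 9.87% (8.92 to 10.9%) and 11.4% (10.2 to 12.7%) at 13 hpf. All 6 intervals overlap. The slope of 0.324 percentage points per hour did not pass the test (two-sided exact permutation p = 0.378; adjusted p = 0.378). At 64C the share was 6.12% (5.92 to 6.33%), below the interval of every later library, in 1 library of another antibody. The mean of the later libraries was 10.4% ± 0.670 (SD, n = 6).

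**Figure D1:**
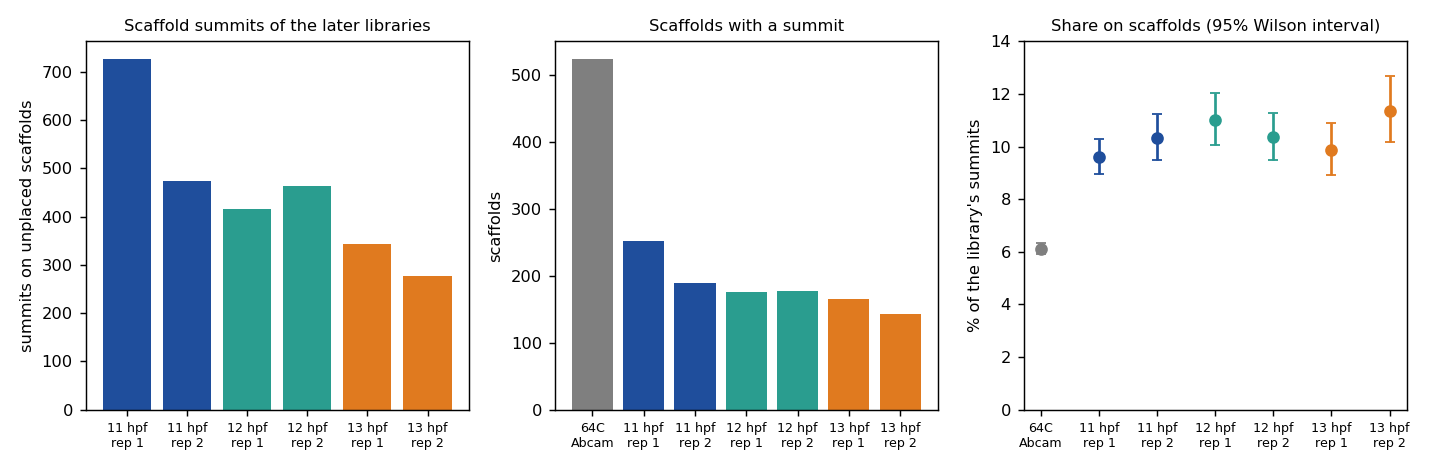
Left, number of summits on unplaced scaffolds in the 6 later libraries (bars). Middle, number of scaffolds with at least 1 summit in all 7 libraries (bars). Right, share of each library's summits on scaffolds in percent (points) with 95% Wilson intervals. The numbers are lower at 13 hpf (343 and 277 summits) than at 11 hpf (727 and 474), while the later shares stay between 9.59 and 11.4% and that of 64C is 6.12%.

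The summits lay on 554 different scaffolds. The 64C library had summits on 524 of them, and the later libraries together on 337. In single libraries the number of occupied scaffolds at 11 hpf was 252 and 189, at 12 hpf 176 and 177, and at 13 hpf 165 and 143. It fell by 33.25 scaffolds per hour (two-sided exact permutation p = 0.0222; adjusted p = 0.0455), and by 18.2 per hour without replicate 1 of 11 hpf (exact permutation p = 0.1). With every list limited to its 2439 highest scores the direction turned, with a slope of 1.50 scaffolds per hour (exact permutation p = 0.689). An occupied scaffold held on average 2.88 and 2.51 summits in the libraries of 11 hpf, 2.37 and 2.62 in those of 12 hpf, 2.08 and 1.94 in those of 13 hpf, and 6.25 at 64C. Scaffolds with a single summit made up 44.8 to 55.9% of the occupied scaffolds in the later libraries and 28.8% at 64C. The most summits on 1 scaffold were 27 in a later library (11 hpf replicate 1) and 43 at 64C. The 10 fullest scaffolds of a library held 21.6 to 24.9% of its scaffold summits in the later libraries and 10.8% at 64C, a description of lists of very unequal length.

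How many libraries used a scaffold varied from 1 to 7. A total of 231 scaffolds had summits in 1 library, 82 in 2, 54 in 3, 42 in 4, 38 in 5, 38 in 6 and 69 in all 7, so that scaffolds of all 7 libraries were more frequent than those of 4, 5 or 6. The 69 scaffolds used by all 7 held 54.7 and 61.8% of the scaffold summits in the libraries of 11 hpf, 62.1 and 62.2% in those of 12 hpf, and 64.1 and 67.9% in those of 13 hpf. At 64C they held 27.1%. A summit in every library was required for these 69. The later libraries, with 143 to 252 occupied scaffolds each against 524 at 64C, mainly set which scaffolds passed. High later shares and a lower one at 64C can follow from this choice alone. The last summit of the 69 scaffolds lay at a median position of 23915, against 14705 for all 554 scaffolds and 11003 for the 217 with summits at 64C only. By number of libraries, from 1 to 7, the medians were 10848, 14354, 9556, 19889, 25918, 21496 and 23915, higher with 4 to 7 libraries than with 1 to 3 but without a steady order. The last summit is taken over the summits of all libraries, so that its position can rise with their number by construction. The part of this position in the sharing was not tested.

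**Figure D2:**
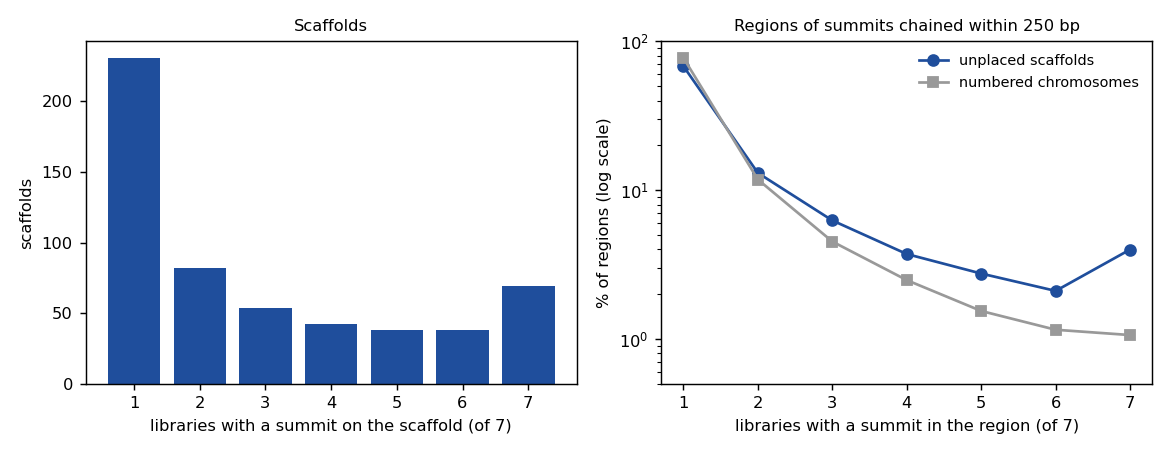
Left, number of scaffolds (bars) by the number of libraries, of 7, that have a summit on them. Right, share of regions in percent on a log axis by the number of libraries with a summit in the region, for unplaced scaffolds (circles) and numbered chromosomes (squares). Both panels rise again on scaffolds at 7 libraries, with 69 scaffolds and 3.99% of regions against 1.06% on chromosomes.

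By the mean share of a library's scaffold summits, chrUn_KN150466v1 came first. It had 27 and 20 summits in the libraries of 11 hpf, 14 and 17 at 12 hpf, 13 and 8 at 13 hpf, and 30 at 64C. Its summits formed a block from position 29532 to 41146, in which 16 regions followed each other with a median distance of 585.5 bp between their middles (311.5 to 1560 bp). Here, a region is a chain of summits of any of the 7 libraries with gaps of at most 250 bp. The block held 93 later summits and 25 of 64C, and the remaining summits lay near the start of the scaffold. Of the 99 later summits on the scaffold, 64 (64.6%) had a 64C summit within 250 bp, and 30 of its 30 summits of 64C had a later one. The scaffold was thus used in every library, but the exact positions in the block differed between libraries.

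A contrasting order was seen on chrUn_KN149757v1, where summits returned to nearly the same positions. It had 11 summits in both libraries of 11 hpf and of 12 hpf, 8 and 9 at 13 hpf, and 10 at 64C. The later summits all lay in 2 regions, from 13726 to 14179 and from 15291 to 16045, and 61 of 61 had a 64C summit within 250 bp. Besides these, a region from 8901 to 8987 was found at 64C alone. In the first region the libraries had 4, 4, 4, 5, 3 and 4 summits from 11 hpf replicate 1 to 13 hpf replicate 2, and 4 at 64C. In the other they had 7, 7, 7, 6, 5 and 5, and 4 at 64C. The mean score percentile of the summits on this scaffold, the mean rank within their own lists, was 79.95, where 50 is the middle of a list by construction.

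Most other scaffolds of the 10 with the highest mean share kept their 64C sites. On chrUn_KN150342v1, with 18 and 14 summits in the libraries of 11 hpf, 9 and 15 at 12 hpf, 9 and 7 at 13 hpf and 16 at 64C, 54 of 72 later summits were near a 64C summit. It held 4 regions with a summit in all 7 libraries, the most of any scaffold. All later summits were near a 64C summit on chrUn_KN150030v1 (62 of 62), chrUn_KN149948v1 (59 of 59), chrUn_KN149762v1 (50 of 50), chrUn_KN150407v1 (42 of 42) and chrUn_KN149842v1 (41 of 41), and 44 of 46 on chrUn_KN149723v1. On some of them the regions were few. On chrUn_KN149948v1, 58 summits lay in a region from 112422 to 114878, 22 in another from 115166 to 115941, and 1 further summit, of 64C, at 24346. On chrUn_KN150407v1 all summits lay in 2 regions, from 509 to 2824 and from 30657 to 31763, both with summits in all 7 libraries.

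Summit numbers did not follow the same order from 11 to 13 hpf on each of these scaffolds. On chrUn_KN149948v1 there were 22 and 12 summits in the libraries of 11 hpf, 6 and 10 at 12 hpf, 5 and 4 at 13 hpf, and 22 at 64C, and the replicates of 11 hpf lie above those of the other later stages. On chrUn_KN149723v1 they had 8 and 7, 9 and 7, and 9 and 6, and 6 at 64C, with overlapping stages. On chrUn_KN149762v1 they had 11 and 10, 5 and 6, and 9 and 9, and 12 at 64C, so that both libraries of 12 hpf were lowest. On chrUn_KN150407v1 they had 6 and 7, 10 and 7, and 6 and 6, against 24 at 64C. The numbers were 16 and 14, 10 and 8, and 8 and 6, with 16 at 64C, on chrUn_KN150030v1, and 10 and 8, 7 and 7, and 4 and 5, with 22 at 64C, on chrUn_KN149842v1. On both of these the libraries of 13 hpf lie below those of 11 hpf. Over all scaffolds the mean number at 13 hpf was 0.516 times that at 11 hpf, and on chromosomes 0.483 times. The orders by number are therefore not read as a trait of these scaffolds. Together the 10 scaffolds held 19.5 to 23.2% of the later scaffold summits of a library and 5.62% of those at 64C. They were chosen by the mean share over 7 libraries, of which 6 are later, and this choice favours high later shares. The 10 fullest scaffolds of 64C itself held 10.8% of its scaffold summits.

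**Figure D3:**
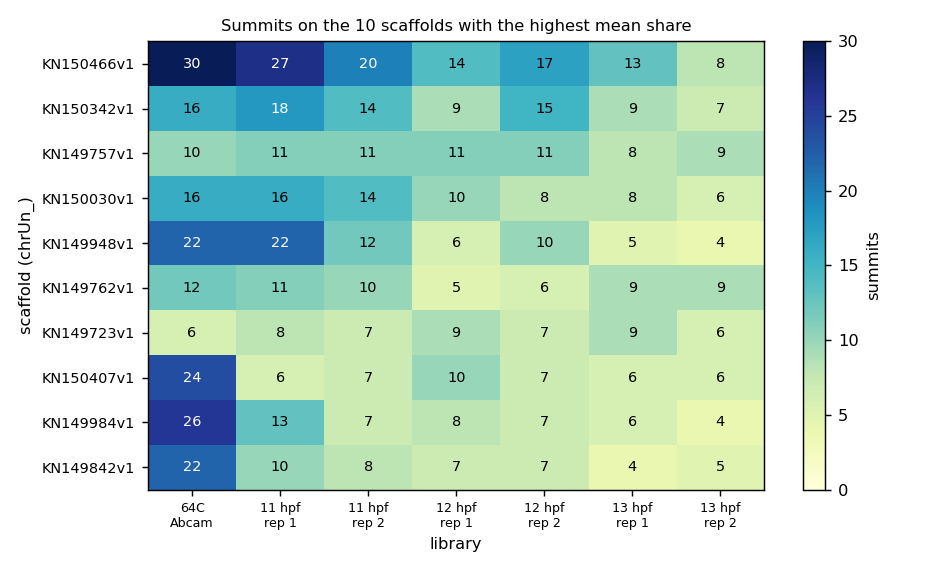
Number of summits (colour and printed value) on each of the 10 scaffolds with the highest mean share of a library's scaffold summits (vertical axis), in each of the 7 libraries (horizontal axis). chrUn_KN150466v1 has the highest number of the 10 in most libraries (27 at 11 hpf replicate 1). In 13 hpf replicate 2 it has 8, against 9 on chrUn_KN149757v1 and chrUn_KN149762v1. Over all libraries chrUn_KN149757v1 stays between 8 and 11.

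The later summits did not lie near 64C summits on every scaffold of this rank. On chrUn_KN149984v1, with 13 and 7 summits in the libraries of 11 hpf, 8 and 7 at 12 hpf, 6 and 4 at 13 hpf and 26 at 64C, only 28 of 45 later summits (62.2%) had a 64C summit nearby. A region from 35060 to 35602 held 1, 3, 3, 2, 2 and 0 summits of the later libraries and none of 64C. In total 6 regions on it were found at 64C alone and 4 in later libraries alone. The most extreme case was chrUn_KN150402v1, named after its values were seen. It had summits in all 7 libraries, but the 14 later summits (3, 3, 2, 2, 2 and 2) lay between 95 and 677, and the 9 of 64C lay at 24120 to 24349 and 43988 to 44648. None of its later summits was near a 64C summit. Shared use of a scaffold is therefore not the same as shared use of a site.

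**Figure D4:**
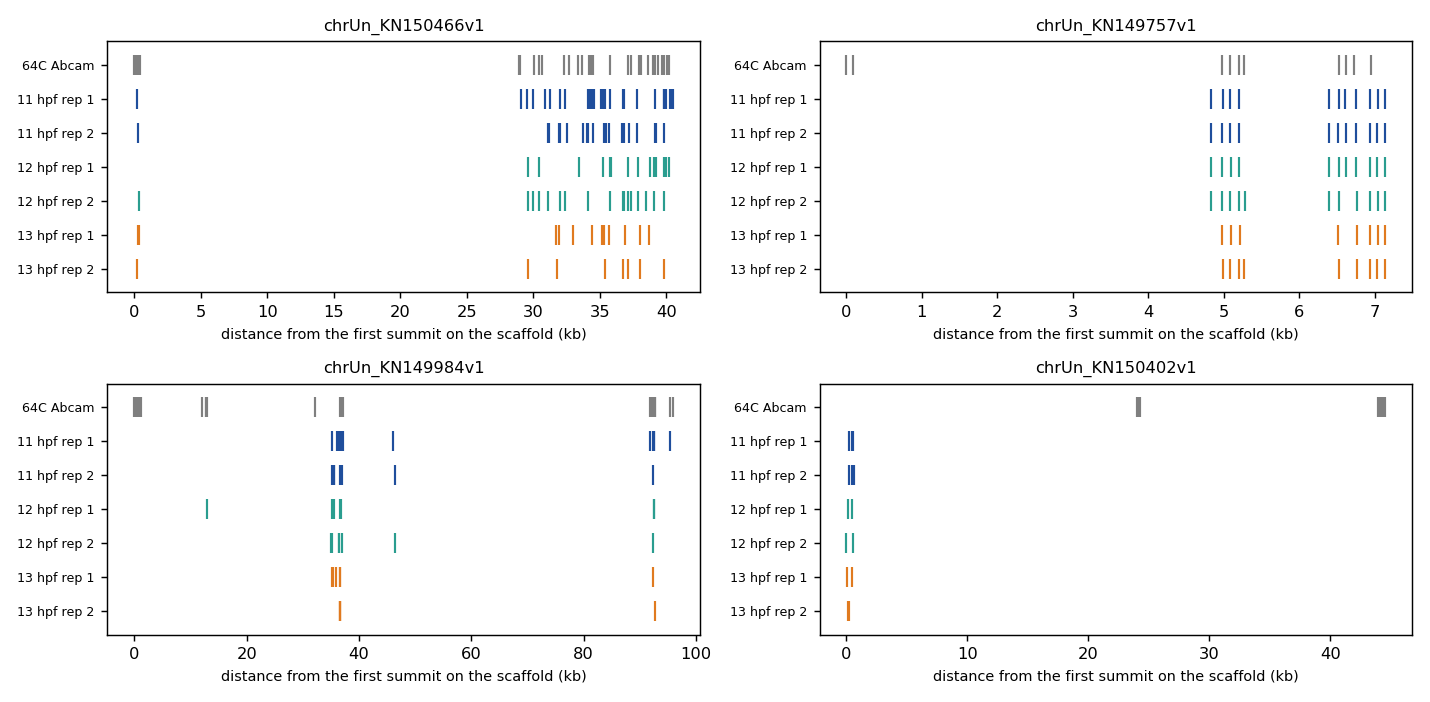
Positions of summits (ticks) in the 7 libraries (rows) on 4 scaffolds, as the distance in kb from the first summit of any library. On chrUn_KN149757v1 the later summits fall in 2 regions that 64C also uses, whereas on chrUn_KN150402v1 the 14 later summits and the 9 of 64C do not meet.

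Retention from 64C was first counted by scaffold. Of the 524 scaffolds with a 64C summit, 307 (58.6%) had a summit in at least 1 later library. This share was 28.5% (43 of 151; 95% Wilson interval 21.9 to 36.1%) for scaffolds with 1 summit at 64C, 46.6% (68 of 146) with 2 to 4, 77.3% (85 of 110) with 5 to 9, 93.0% (80 of 86) with 10 to 19, and 100% (31 of 31; 89.0 to 100%) with 20 or more. A later summit anywhere on the scaffold was counted, near a 64C summit or not. The shorter later lists limit these shares, and the part of scaffold length in their order was not tested. Stretches of chromosomes were not counted alike, and the shares are not read as a trait of scaffolds. The 217 scaffolds used at 64C only held 551 summits, or 16.8% of the 64C scaffold summits, and 108 of them held 1 summit. The fullest of these were chrUn_KN150055v1 with 18 summits, chrUn_KN150230v1 with 17 and chrUn_KN149696v1 with 14, each with 0 in all 6 later libraries.

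In the other direction, 30 scaffolds had later summits but none at 64C, and they held 100 of the 2701 later scaffold summits. Of these scaffolds, 14 were used by 1 library only, and 2 by all 6. The latter were chrUn_KN149844v1, with 2, 3, 2, 4, 1 and 2 summits from 11 hpf replicate 1 to 13 hpf replicate 2, and chrUn_KN149921v1, with 3, 2, 1, 1, 2 and 3. All 12 summits of chrUn_KN149921v1 lay between 27658 and 27930, with a mean score percentile of 78.2. Next came chrUn_KN150227v1, with 1, 0, 1, 1, 1 and 1 summits between 103 and 183.

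Counted by summit, most later scaffold summits had a 64C summit within 250 bp. At 11 hpf the share was 79.4 and 82.7%, at 12 hpf 83.7 and 81.4%, and at 13 hpf 81.9 and 84.1%. On numbered chromosomes the shares were 77.5 and 79.98%, 76.0 and 76.9%, and 74.3 and 78.2%. The scaffolds were higher in 6 of 6 libraries, with 82.2% ± 1.72 against 77.1% ± 1.93 (SD, n = 6) and a mean difference of 5.06 percentage points (two-sided exact paired permutation test, p = 0.0312, the smallest these can give; adjusted p = 0.0455). All 6 comparisons share the 1 library of 64C. The difference changes with the summits that are counted. The following alternatives cut the 64C list as well as the later ones, and the shares themselves are lower. With 1 summit per peak the difference is 1.05 points (70.2 against 69.2%, exact permutation p = 0.281). In the 2439 highest-scoring summits of every library it is -1.28 points (16.5 against 17.8%, exact permutation p = 0.0938). Among summits without a neighbour within 1 kb in their own list, an alternative chosen after seeing the data, it is -1.11 points (16.6 against 17.7%, exact permutation p = 0.188). Among the 26 sequences formed by the scaffolds together and each chromosome, the scaffolds ranked 5th, between 66.8% on chromosome 4 and 85.8% on chromosome 12.

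The first and last 2 Mb of the chromosomes gave a further comparison. Here the share of later summits with a 64C summit nearby was 83.2 and 84.4% for 11 hpf, 83.9 and 85.0% for 12 hpf, and 82.2 and 84.0% for 13 hpf. The scaffolds were lower in 5 of 6 libraries, by 1.57 points on average, which did not pass the test (two-sided exact permutation p = 0.0625; adjusted p = 0.0821). Among summits without a neighbour within 1 kb the direction turned (exact permutation p = 0.0312). The share was then 16.6% on scaffolds and 12.4% on the ends, a difference of 4.16 points. This alternative also removes the 64C summits that have a neighbour, 80.3% of those on scaffolds and 83.7% of those on the ends. The sign of this comparison thus changes with the summits counted in both lists.

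From the side of 64C, a smaller part of the summits was found again. The 64C list holds 3275 scaffold summits and each later list only 277 to 727, which limits this share. The part of list length in these shares and in their order by stage was not tested. A summit of the 64C library on scaffolds had one of 11 hpf nearby in 27.2 and 19.7% of cases, of 12 hpf in 18.8 and 19.5%, and of 13 hpf in 14.9 and 13.0%. On chromosomes the shares were 18.2 and 11.8%, 9.53 and 11.2%, and 8.63 and 6.38%. Scaffolds were higher for 6 of 6 libraries, with 18.9% ± 4.92 against 11.0% ± 4.05 (SD, n = 6) and a mean difference of 7.91 points (two-sided exact paired permutation p = 0.0312; adjusted p = 0.0455). Here and against the chromosome ends below, all 6 comparisons count the same summits of the 1 library of 64C. The p-values therefore do not measure the spread between 64C samples. The direction was the same with 1 summit per peak (6.57 points) and among summits without a neighbour (1.74 points). In the latter both shares were lower as well, at 4.46% on scaffolds and 2.72% on chromosomes. Against the chromosome ends, a comparison added after seeing the data, the difference was 2.15 points in 6 of 6 libraries (exact permutation p = 0.0312; adjusted p = 0.0455). The scaffold share exceeded that of every single chromosome (8.47% on chromosome 1 to 13.6% on chromosome 22).

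Of the 3275 scaffold summits of 64C, 1862 (56.9%) were near no later library and 159 (4.85%) near all 6. These shares too are limited by the shorter later lists and do not measure a loss after 64C. On chromosomes these shares were 69.2 and 1.57%. The mean score percentile of the 64C scaffold summits was 48.4 for those near no later library, 52.0 near 1, 58.0 near 2, 60.4 near 3, 63.9 near 4, 59.1 near 5 and 59.1 near all 6. On chromosomes the values in the same order were 47.5, 52.5, 55.9, 57.1, 60.1, 63.1 and 60.1. On scaffolds and on chromosomes alike, the scores of summits found again thus lay higher than those of summits found at 64C alone. On the later side, the mean percentile of scaffold summits with a 64C summit was 56.1 and 57.5 for 11 hpf, 55.7 and 55.6 for 12 hpf, and 56.6 and 53.0 for 13 hpf. Without one, it was 45.6 and 48.2, 51.0 and 49.0, and 45.7 and 51.7, lower in each library. These values were not tested.

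Over the 82 scaffolds with at least 10 later summits and at least 1 of 64C, a median of 94.4% of the later summits had a 64C summit nearby. On 37 of them every later summit had a 64C summit nearby, on 59 at least 80% did, and on 6 fewer than 50% did. Stretches of chromosomes were not counted alike, and these values are not read as a trait of scaffolds. By summit, the mean share over the later libraries was 82.2% on scaffolds, 77.1% on chromosomes and 83.8% on chromosome ends. The 2 scaffolds at 0% were chrUn_KN150402v1 and chrUn_KN149714v1. The latter had 3, 1, 2, 4, 0 and 1 later summits and 4 of 64C between 31203 and 33473.

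Chained into regions, the scaffold summits of all 7 libraries gave 1853 regions. A summit in 1 library only was found in 68.1% of them, against 77.4% of the 31897 regions on chromosomes. All 7 libraries met in 74 regions (3.99%), against 1.06% on chromosomes. Regions with a summit at 64C, 11, 12 and 13 hpf made up 7.99% on scaffolds and 3.33% on chromosomes, and regions of 64C alone 61.3 and 71.2%. Of the 717 scaffold regions with a later summit, 515 (71.8%, 95% Wilson interval 68.4 to 75.0%) also had one of 64C, close to 69.2% on chromosomes. Of the 1651 with a 64C summit, the same 515 make up 31.2% (29.0 to 33.5%), against 21.9% (21.4 to 22.3%) on chromosomes.

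Regions of all 7 libraries were the widest and had the highest scores. From 1 to 7 libraries the median width was 1, 99, 237, 304, 376, 374 and 568 bp, and the median over regions of the mean best score percentile of their libraries was 50.9, 50.2, 53.5, 53.6, 60.9, 63.1 and 80.1. Neither order is free of steps back. Both values can rise by construction, since each further summit can lengthen a chain and, within its library, adds a score from which the best is taken. The 74 regions of all 7 libraries lay on 60 scaffolds and were 10 to 2457 bp wide.

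The region of all 7 with the best mean score percentile, 98.5, lay on chrUn_KN150535v1 from 1277 to 1823. Its top scores were 27.2 and 27.2 at 11 hpf, 26.3 and 26.5 at 12 hpf, 25.6 and 26.03 at 13 hpf, and 10.7 at 64C. The later libraries had 1, 1, 1, 1, 2 and 1 summits in it and 64C had 6. Its highest summit was among the 3 highest scaffold summits of 5 later libraries, at positions 1281 (11 hpf replicate 2), 1279 and 1282 (12 hpf), and 1277 and 1278 (13 hpf). The next, on chrUn_KN150412v1 from 3038 to 3047, was also the narrowest of the 74, with 1 summit per library within 10 bp. Its scores were 13.1 and 17.9 at 11 hpf, 22.2 and 26.3 at 12 hpf, 20.7 and 16.5 at 13 hpf, and 17.9 at 64C. These regions show that agreement to a few bp between libraries was reached on scaffolds.

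Others among the 10 best regions were broad. A region of chrUn_KN149729v1 from 468 to 1658 held 43 summits, with 7 and 10 at 11 hpf, 5 and 5 at 12 hpf, 5 and 4 at 13 hpf and 7 at 64C. On chrUn_KN149762v1 there were 2 such regions, from 40 to 689 with 21 summits and from 1415 to 2130 with 38. In the former the top scores were 12.7 and 7.31 at 11 hpf, 16.99 and 12.4 at 12 hpf, 27.2 and 29.9 at 13 hpf, and 12.1 at 64C. The remaining regions lay on chrUn_KN150460v1 (192444 to 193768), chrUn_KN150354v1 (458 to 720), chrUn_KN149855v1 (22580 to 22938), chrUn_KN150180v1 (48 to 248) and chrUn_KN149778v1 (48 to 190). Scores are not comparable between lists, so that these values describe each list by itself.

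The highest score on scaffolds came from the same site in all libraries of 11 and 12 hpf. It lay on chrUn_KN149757v1 at 15843 and 15841 at 11 hpf, with scores of 38.5 and 35.9. At 12 hpf it lay at 15841 and 15837, with scores of 27.5 and 35.9. At 13 hpf the highest summit lay on chrUn_KN149762v1 at 114 and 109, with scores of 27.2 and 29.9. In the whole lists these summits ranked 2nd and 2nd at 11 hpf, 5th and 2nd at 12 hpf, and 2nd and 1st at 13 hpf. At 64C the highest scaffold summit, on chrUn_KN150604v1 at 24934 with a score of 26.4, ranked 17th of 53511, and the highest score of that list was 70.6. The top of each later list was thus partly made of scaffold summits.

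The mean rank of scaffold summits was also higher than that of chromosome summits. The median score on scaffolds and on chromosomes was 4.86 and 4.54 in 11 hpf replicate 1, and 5.52 and 4.71 in replicate 2. It was 4.71 and 4.12, then 4.73 and 4.28, in the replicates of 12 hpf, 4.27 and 3.81, then 4.93 and 4.68, in those of 13 hpf, and 5.83 and 5.64 at 64C. As ranks, the mean percentile on scaffolds was 53.9 and 55.9 at 11 hpf, 54.9 and 54.4 at 12 hpf, 54.6 and 52.8 at 13 hpf, and 52.0 at 64C. The mean over libraries was 54.1 ± 1.34 on scaffolds and 49.5 ± 0.183 on chromosomes (SD, n = 7), higher in 7 of 7 libraries by 4.53 on average (two-sided exact paired permutation p = 0.0156, the smallest these can give; adjusted p = 0.0455). Among summits without a neighbour within 1 kb the difference was 2.90 (exact permutation p = 0.0781). Against the chromosome ends, added after seeing the data, it was 1.92 in 7 of 7 libraries (exact permutation p = 0.0156; adjusted p = 0.0455). Of the scaffold summits, 12.9 to 15.5% of the later libraries and 11.6% of 64C were among the highest 10% of scores of the list, against 9.20 to 10.3% of the chromosome summits. Among the lowest 10%, scaffolds had the lower share in most libraries. They had the slightly higher one in replicate 2 of 12 hpf (9.94 against 9.80%) and of 13 hpf (10.1 against 9.81%). By single chromosome the mean percentile ranged from 46.0 on chromosome 1 to 53.99 on chromosome 3, close to the 54.1 of the scaffolds.

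Scaffold summits were also more crowded. A neighbour within 1 kb in the same library was found for 66.3 and 64.1% of the scaffold summits at 11 hpf, 61.2 and 60.7% at 12 hpf, 54.8 and 57.8% at 13 hpf, and 80.3% at 64C. On chromosomes it was found for 51.7 and 49.2%, 42.8 and 43.1%, 38.7 and 43.8%, and 71.6%. The difference was 14.9 points in 7 of 7 libraries (two-sided exact paired permutation p = 0.0156; adjusted p = 0.0455). The mean over libraries was 63.6% on scaffolds, and by single chromosome it ranged from 34.7% on chromosome 4 to 61.3% on chromosome 3. Summits in peaks with several summits made up 26.7% ± 13.0 on scaffolds and 18.6% ± 13.2 on chromosomes (SD, n = 7; difference 8.15 points in 7 of 7 libraries, exact permutation p = 0.0156; adjusted p = 0.0455). Against the chromosome ends, both differences were smaller, at 6.79 and 4.36 points, with 6 of 7 libraries higher and 64C lower (comparisons added after seeing the data, exact permutation p = 0.0312 and adjusted p = 0.0455 for both). Beyond the alternatives given above, the part of crowding in the matching and score values was not tested.

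**Figure D5:**
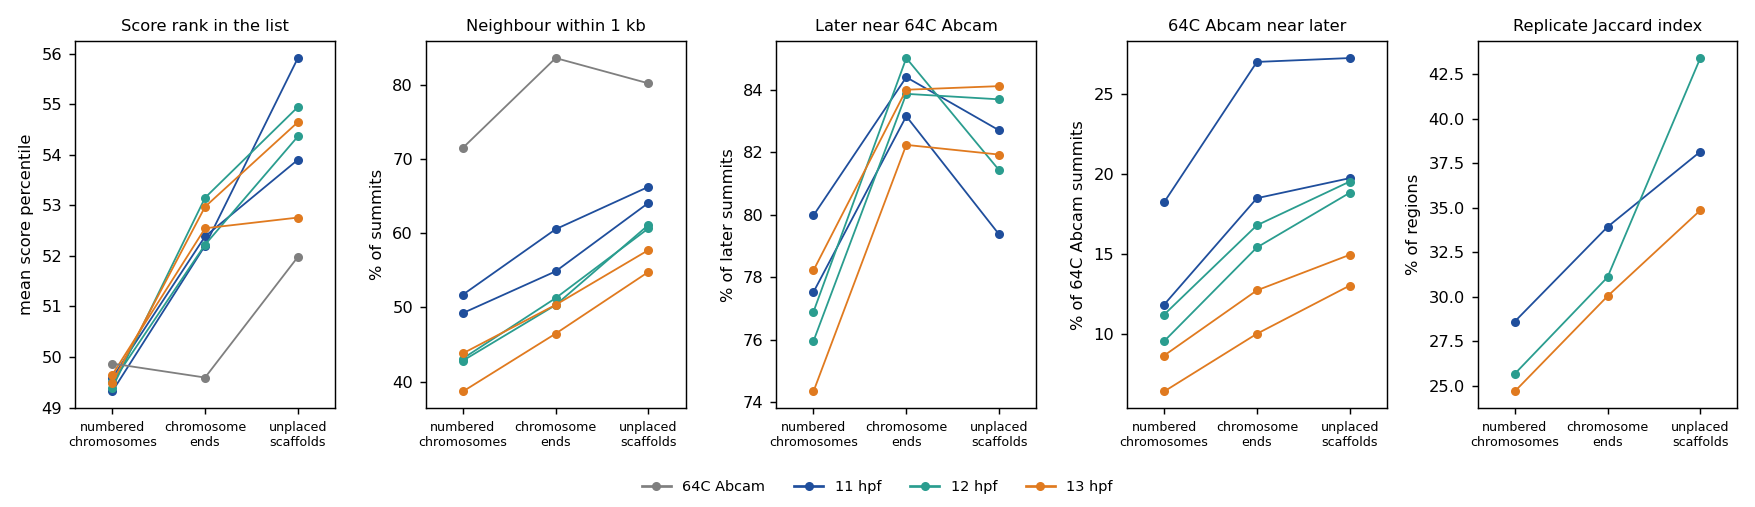
Values on numbered chromosomes, on their first and last 2 Mb, and on unplaced scaffolds (horizontal axes), with 1 line per library or, at the right, per replicate pair. From left to right the vertical axes give the mean score percentile in the list, the share of summits with a neighbour within 1 kb, the later summits that lie near a 64C Abcam summit, the reverse share, and the Jaccard index of replicates (all but the first in percent, none starting at 0). Scaffolds lie above whole chromosomes in each line, and above the chromosome ends in each line of the panels of score, reverse share and Jaccard index.

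Replicates shared more regions on scaffolds than on chromosomes. The Jaccard index, the regions found in both replicates over those found in either, was 38.1% at 11 hpf (222 of 582 regions), 43.4% at 12 hpf (197 of 454) and 34.9% at 13 hpf (122 of 350). On chromosomes it was 28.6, 25.7 and 24.7%, and on chromosome ends 33.9, 31.1 and 30.0%. The difference of 12.5 points from whole chromosomes was found in 3 of 3 pairs, which cannot give a p-value below 0.25 (two-sided exact paired permutation p = 0.25; adjusted p = 0.267). Among summits without a neighbour within 1 kb it was 4.66 points, with means of 18.6 and 13.9%. From replicate 1, 57.8% of the scaffold summits at 11 hpf, 70.5% at 12 hpf and 55.7% at 13 hpf had one of replicate 2 within 250 bp. From replicate 2 the shares were 78.3, 65.2 and 64.3%. Matched summits lay a median of 21.5, 16 and 15 bp apart on scaffolds and 25, 19 and 17 bp on chromosomes.

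Whether replicates met more often than libraries of different stages was tested on scaffold regions alone. Replicates of a stage share its input, and libraries of different stages do not. Likeness by stage and by input therefore cannot be told apart. The mean Jaccard index was 38.8% ± 4.30 for the 3 replicate pairs and 31.2% ± 1.96 for the 12 pairs of different stages (27.8 to 34.7%). On chromosomes these means were 26.3 and 20.8%, and on chromosome ends 31.7 and 25.4%, so that replicates were higher there as well. The difference of 7.61 points on scaffolds had the smallest p-value that the 15 ways to pair 6 libraries allow (one-sided exact permutation p = 0.0667; adjusted p = 0.0821), which is above 0.05. The pair of 11 hpf replicate 2 and 12 hpf replicate 2, at 34.7%, came close to the replicates of 13 hpf at 34.9%. In 15 of 15 pairs, replicates or not, the index was higher on scaffolds than on chromosomes and than on chromosome ends. Counted by occupied scaffold instead of region, replicates shared 166 of 275 scaffolds (60.4%) at 11 hpf, 131 of 222 (59.0%) at 12 hpf and 103 of 205 (50.2%) at 13 hpf.

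Summit numbers per scaffold were alike between replicates. Across the 554 scaffolds, which are not independent replicates and share libraries, Pearson's r between replicates was 0.897 at 11 hpf, 0.886 at 12 hpf and 0.827 at 13 hpf, with Spearman's rho of 0.729, 0.715 and 0.620. Between 64C and the mean of the later libraries r was 0.511 and rho 0.537. The values between 64C and the later libraries were thus lower than those between replicates. This description holds the difference in antibody as well as in stage. Only 275, 222 and 205 of the 554 scaffolds have a summit in either replicate of 11, 12 and 13 hpf, and the others count as alike. Between 64C and the later libraries no scaffold is empty on both sides. This choice of scaffolds and the unequal list lengths can widen the gap by themselves, and their part was not tested.

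For the order of stages on single scaffolds, the 84 scaffolds with at least 10 later summits were used. Summed over replicates, the numbers were lower at each next stage on 35 of them, higher at each next stage on 0 and in another order on 49, and there were more at 11 than at 13 hpf on 69. Over the same stages the mean number of all scaffold summits fell from 600.5 to 440 and 310. On chromosomes the mean fell from 5482.5 to 3689.5 and 2647.5. The orders by number were not counted in bins on chromosomes and are not read as a trait of scaffolds. As a share of the library's scaffold summits, both libraries of 11 hpf lay above both of 13 hpf on 21 scaffolds (25%), and both of 13 hpf above both of 11 hpf on 24 (28.6%), while 39 overlapped. Of 633 bins of 100 kb on numbered chromosomes with at least 10 later summits, treated alike with all summits as the base, 24% and 21.3% were without overlap in these directions. The shares on scaffolds are near this background, and no scaffold is singled out by it.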

How the data were processed

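Genomic DNA of zebrafish embryos was measured by 6mA-IP-seq in 8 IP libraries with 5 inputs, grouped by stage, antibody and replicate from the labels. Mapping by the authors used Bowtie (1.0 in the submitters' processing notes) on danRer10, with 1 of several equal matches taken at random. Enriched regions were then called per IP library by MACS, with the input as control and a false discovery rate of 0.01. The authors deposited summit positions with 1 value each, the −log10 of the q-value. Depth is not given in these lists.

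Positions were counted from 1. Scores were turned into midrank percentiles within a list. Summits were matched, and chained into regions, within 250 bp. Chromosome length is the span to the last summit of any library. Exact permutation tests enumerated 90 stage orders (slopes), 64 or 128 sign flips (paired differences over 6 or 7 libraries), 8 over 3 pairs and 15 pairings. P-values were adjusted by Benjamini-Hochberg over 16 tests, 5 of them added after seeing the data. Of the 16, 11 had p under 0.05, and the same number an adjusted p under 0.05. The study calls the replicates biological, while the labels do not say whether they came from separate batches of embryos. P-values measure the spread between these libraries and, where all comparisons share the 1 library of 64C, only that between the later ones. They do not measure the spread between inputs, of which each later stage has 1. The matching was tested on simulated lists. Python 3.11.15, NumPy 2.4.6, SciPy 1.17.1 and matplotlib 3.10.9 were used.

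Named scaffolds were the 10 in all 7 libraries with the highest mean share, and named regions the 10 in all 7 with the best mean score percentile. Of scaffolds without 64C or later summits, the 3 with most libraries or summits were named. The summits, lists and rules were chosen with earlier results of these data known. Alternatives were matching within 100, 500 or 1000 bp, 1 summit per peak, summits not below the median score of the list, the 2439 highest-scoring summits of every library, neighbours within 250 or 500 bp, a replicate block, leaving out each later library (and the 64C library for 3 results) and, added after seeing the data, summits without a neighbour within 1 kb and the chromosome ends. No sequence or annotation of danRer10 was used here. The names of peaks carry replicate marks that differ between 64C and the later lists and whose meaning is not given in the sources used here.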

Additional observations from a re-analysis of the deposited data

How the results depend on the processing

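Of 128 alternative values, 94 kept their direction and their side of 0.05, and the cause of the other changes was not tested except where given. This count is partly fixed in advance and does not measure robustness. The Jaccard tests cannot give a p-value below 0.05 in any setting. The paired tests with 5 libraries left and the slopes with a replicate block cannot either. All p-values are from exact permutation tests. Later summits with a 64C summit nearby, whose share was 5.06 points higher on scaffolds than on chromosomes, differed by 1.05 points with 1 summit per peak (exact permutation p = 0.281), by -1.28 points in the 2439 highest-scoring summits of every library (p = 0.0938) and by -1.11 points in summits without a neighbour (p = 0.188). These settings cut the 64C list too, and the mean share on scaffolds fell from 82.2% to 70.2, 16.5 and 16.6%. Against chromosome ends, where the difference was -1.57 points, it was -1.35 with matching within 100 bp and -5.11 with 1 summit per peak. It was -2.48 in the 2439 highest and 4.16 in summits without a neighbour. Each of these alternatives had an exact permutation p = 0.0312. With wider matching the difference was smaller in size, at -0.0820 points within 500 bp (exact permutation p = 0.906). Within 1000 bp it was -0.158 points (exact permutation p = 0.781). In summits not below the median score of the list it was -1.92 points (exact permutation p = 0.281). The percentile difference was 2.90 in summits without a neighbour (exact p = 0.0781). In the 2439 highest, where all lists have the same length, the slope of the scaffold share was -0.277 points per hour (exact p = 0.356) and that of occupied scaffolds 1.50 (p = 0.689).

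The replicate numbers are shared between stages, and the deviations of same-numbered libraries over 337 scaffolds correlated by -0.0570, 0.0628 and 0.0217. Whether same-numbered libraries share a preparation is not in the labels, and these correlations cannot settle it. With a replicate block the slopes stayed at -145.25 summits and -33.25 scaffolds per hour, with exact p = 0.0556, the smallest its 36 orders allow.

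Leaving out 1 library, the slopes ranged from -197.3 to -88.9 summits (exact permutation p from 0.0333 to 0.133), 0.0612 to 0.700 points of share, and -45.2 to -18.2 scaffolds (p from 0.0333 to 0.167). The slopes of summits and of scaffolds nearest to 0 were those without 11 hpf replicate 1. The differences ranged from 4.52 to 5.70 (later near 64C) and 7.64 to 8.23 points (64C near later), both with exact p = 0.0625, the smallest that 5 libraries allow. They ranged from -1.91 to -1.13 (against ends), 4.19 to 4.77 (percentile), 14.3 to 15.04 (neighbours), 7.73 to 8.81 (several summits per peak), 9.85 to 13.9 (Jaccard index) and 5.61 to 9.42 points (replicates against different stages). Unknown depth limits what the numbers of summits can show.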
